A study of Rattus norvegicus with 19 samples.

Results

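Liver transcripts of 34 genes that take up, activate and oxidise fatty acids, or that are known targets of the nuclear receptor PPAR alpha, were compared between rats exposed to the flame retardant mixture DE-71 and vehicle controls at postnatal day 4. The genes were chosen by name, as Ppara itself and genes known to be its targets or to act in fatty acid oxidation, and each was read from the probe set of that symbol with the highest mean over all arrays. Of the 34 genes, 33 had such a probe set, out of 14217 genes on the array. Acaa1a was the exception, because its probe set is shared with Acaa1b, and it was left out.

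The data are 19 Affymetrix Rat230_2 arrays of liver RNA from the left lateral lobe of Wistar Han rats of the stock Crl:WI (Han). Timed-mated dams received DE-71, a commercial pentabromodiphenyl ether mixture, in corn oil by gavage each day from gestation day 6 to postnatal day 4. The vehicle group received corn oil without DE-71 and has 5 arrays, and the exposed groups received 0.1 mg/kg (5 arrays), 15 mg/kg (4 arrays, replicates 2 to 5) and 50 mg/kg (5 arrays) per day. The study asked which transcripts differ between vehicle and each dose. The labels give the sex as female and do not say whether the liver is that of the dam or of the pups, nor that arrays come from separate animals or litters, so that a p-value measures the spread between these arrays, which may be technical. All values are log2 signals, so that a difference of 1 is a doubling.

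PPAR alpha is a receptor for fatty acids and their derivatives that binds DNA as a pair with the retinoid X receptor and turns on genes of fat burning. In the suckling rat, milk supplies much of the energy as fat, and the liver oxidises these fatty acids and makes ketone bodies from them. Long fatty acids are bound to coenzyme A, carried into mitochondria on carnitine and shortened there by cycles of beta-oxidation, while peroxisomes shorten very long chains and P450 enzymes of the Cyp4a family oxidise the far end of the chain.

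Several arrays stood apart, and the results below are given with this in view. Vehicle replicate 2 and 0.1 mg/kg replicate 2 nearly coincided: the SD of their differences over all probe sets was 0.128, against 0.197 for the next closest of 171 pairs of arrays, and both carried kidney and pancreas transcripts. The 33 genes differed between these 2 arrays by a median of 0.0279, against at least 0.0959 in every other pair. The array labelled 0.1 mg/kg replicate 1 had Cyp1a1, a P450 gene switched on by the aryl hydrocarbon receptor, at 14.06, where the rest of its group lay between 7.19 and 8.42, vehicle between 7.10 and 8.36, 15 mg/kg between 13.16 and 14.17, and 50 mg/kg between 14.11 and 14.30. That value goes against the label of this array. Hepatocyte transcripts were high on all arrays (list mean 14.24 to 14.35), and the fetal liver transcript Afp lay between 14.47 and 14.70. The Y-linked transcripts Eif2s3y and Uty read between 9.46 and 10.07 on every array and Xist between 3.88 and 4.29. These values go against the label female and, since dams are female, against livers of the dams. Skeletal muscle transcripts (13 of 14 listed genes measured) averaged 10.10 in vehicle replicate 1, 8.13 in vehicle replicate 5, 8.46 in 50 mg/kg replicate 2 and 8.33 in 50 mg/kg replicate 3, against a median of 4.79. At 15 mg/kg they averaged 6.12, 6.99 and 6.15 in replicates 2, 4 and 5. Adipose transcripts averaged 8.07 in 50 mg/kg replicate 3 against a median of 5.85, and kidney transcripts 7.50 there against 5.23. Pancreas transcripts averaged 7.33 in vehicle replicate 4 and 7.98 in 15 mg/kg replicate 5 against 5.24, and intestine transcripts 10.07 in the latter against 6.30. Array numbers in the descriptions, which the labels do not explain, put 4 of the 5 arrays at 50 mg/kg among the 7 arrays numbered 1 to 8, with 1 array of each other group, and the remaining 12 arrays from 9 to 20. The first 7 are called early below and the other 12 late. This cut and these names were set here, and the labels do not say that the numbers follow time or a batch.

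At 50 mg/kg, 3 of the 33 genes changed and they did not move in one direction. All 3 calls were lost with a block for early and late array numbers, while the differences kept their sign (adjusted p = 0.0996 for Cpt2, 0.126 for Crat and 0.0821 for Acadm). Cpt2, which releases fatty acids from carnitine inside the mitochondrion, rose 1.35-fold. Crat, which moves acetyl groups and other short chains to and from carnitine, fell 1.46-fold, and Acadm, the dehydrogenase that opens beta-oxidation of medium chains, fell 1.32-fold. These 3 genes are 9.09% of the 33, against 1.61% of all 31042 probe sets (1.22% higher and 0.383% lower) and 2.23% of all 14217 genes. With the test limited to the 15521 probe sets above the median level, which hold all 33 genes, 4.45% passed. This share has a fit and adjustment of its own, so it is not of one test with the 9.09%. In that fit Cpt2, Crat and Acadm passed as well (adjusted p = 0.00725, 0.0179 and 0.0151). The shares of 1.61% and 2.23% include dim probe sets and so are low for genes of this signal level. None of the 33 passed the test at 0.1 mg/kg, at 15 mg/kg or between 50 and 15 mg/kg. The share over all probe sets was 0% in these comparisons as well. Even Cyp1a1 did not pass at 15 mg/kg, although its values there lay far above those of vehicle. A count of 0 at 15 mg/kg therefore does not show that no transcript differed. Without the array labelled 0.1 mg/kg replicate 1, 11 probe sets (0.0354%) passed at 15 mg/kg, and still none of the 33 genes.

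Because the genes that changed are so few, the 250 bases before the transcription start are shown for them, from the RefSeq promoter table of build GRCr8, together with the only match to a PPAR element found among the group. Capitals mark the letters GCGTG on either strand in the first 3 sequences (GCGTG or its complement CACGC), the core that the aryl hydrocarbon receptor is known to bind. In the Fabp1 sequence they mark a match to AGGNCANAGGNCA, a relaxed form of the PPAR element, on the reverse strand. Each is written 5′ to 3′ on the strand of the gene.
Cpt2, chr5:127910819-127911068, minus strand: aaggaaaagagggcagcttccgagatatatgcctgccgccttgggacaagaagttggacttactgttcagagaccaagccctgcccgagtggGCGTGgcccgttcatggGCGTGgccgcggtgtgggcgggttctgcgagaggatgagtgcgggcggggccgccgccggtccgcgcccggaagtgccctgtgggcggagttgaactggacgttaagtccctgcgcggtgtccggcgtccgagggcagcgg
Crat, chr3:34087100-34087349, minus strand: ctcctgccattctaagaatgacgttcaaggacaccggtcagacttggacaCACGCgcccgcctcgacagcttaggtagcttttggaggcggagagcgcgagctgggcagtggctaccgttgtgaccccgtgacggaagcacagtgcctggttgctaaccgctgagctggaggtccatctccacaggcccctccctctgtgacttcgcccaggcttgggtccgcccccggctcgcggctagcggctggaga
Acadm, chr2:245542865-245543114, minus strand: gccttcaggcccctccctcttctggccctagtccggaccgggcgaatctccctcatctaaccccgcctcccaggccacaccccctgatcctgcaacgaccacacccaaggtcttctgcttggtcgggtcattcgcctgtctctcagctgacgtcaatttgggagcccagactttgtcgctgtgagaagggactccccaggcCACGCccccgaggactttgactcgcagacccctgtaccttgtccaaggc
Fabp1, chr4:104749090-104749339, plus strand: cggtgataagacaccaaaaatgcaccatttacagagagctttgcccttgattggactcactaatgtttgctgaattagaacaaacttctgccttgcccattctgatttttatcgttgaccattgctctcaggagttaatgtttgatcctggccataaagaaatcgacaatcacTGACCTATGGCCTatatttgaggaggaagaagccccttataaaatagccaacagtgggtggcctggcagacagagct

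The promoter table held 28 of the 34 genes, Acaa1a included, each with 250 bases before and 50 after the start. Acadl, Ech1, Acaa2, Decr1, Cyp4a1 and Vnn1 are not among them. GCGTG lay in all 3 of the windows of the changed genes, at 158 and 141 bases before the start of Cpt2, 200 before that of Crat, and 49 before and 23 after that of Acadm. Counting these 3, it lay in 13 of the 28 windows (46.4%), in 29.7% of all 33469 windows, and in 58.4% of those with at least 60% G and C. The 250 bases shown for the 3 genes hold 66.8%, 63.6% and 62.4% G and C. That of their whole windows, which the limit of 60% refers to, is not given here. The longer form TNGCGTG lay in the windows of Acaa1a, Ppara and Ucp2, 3 of 28, and in 4.89% of all windows. The strict PPAR element AGGTCANAGGTCA lay in none of the 28 and in 0.0538% of all windows, and the relaxed form AGGNCANAGGNCA in 1, Fabp1 at 77 bases before the start, and in 0.415% of all. A single AGGTCA, which overlaps with these elements, lay in 5 of the 28 (17.9%; Acadvl, Cyp4a3, Eci1, Fabp1 and Hadhb) and in 16.2% of all windows. These are matches of letters on either strand within a short window and no measure of binding.

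**Figure D1:**
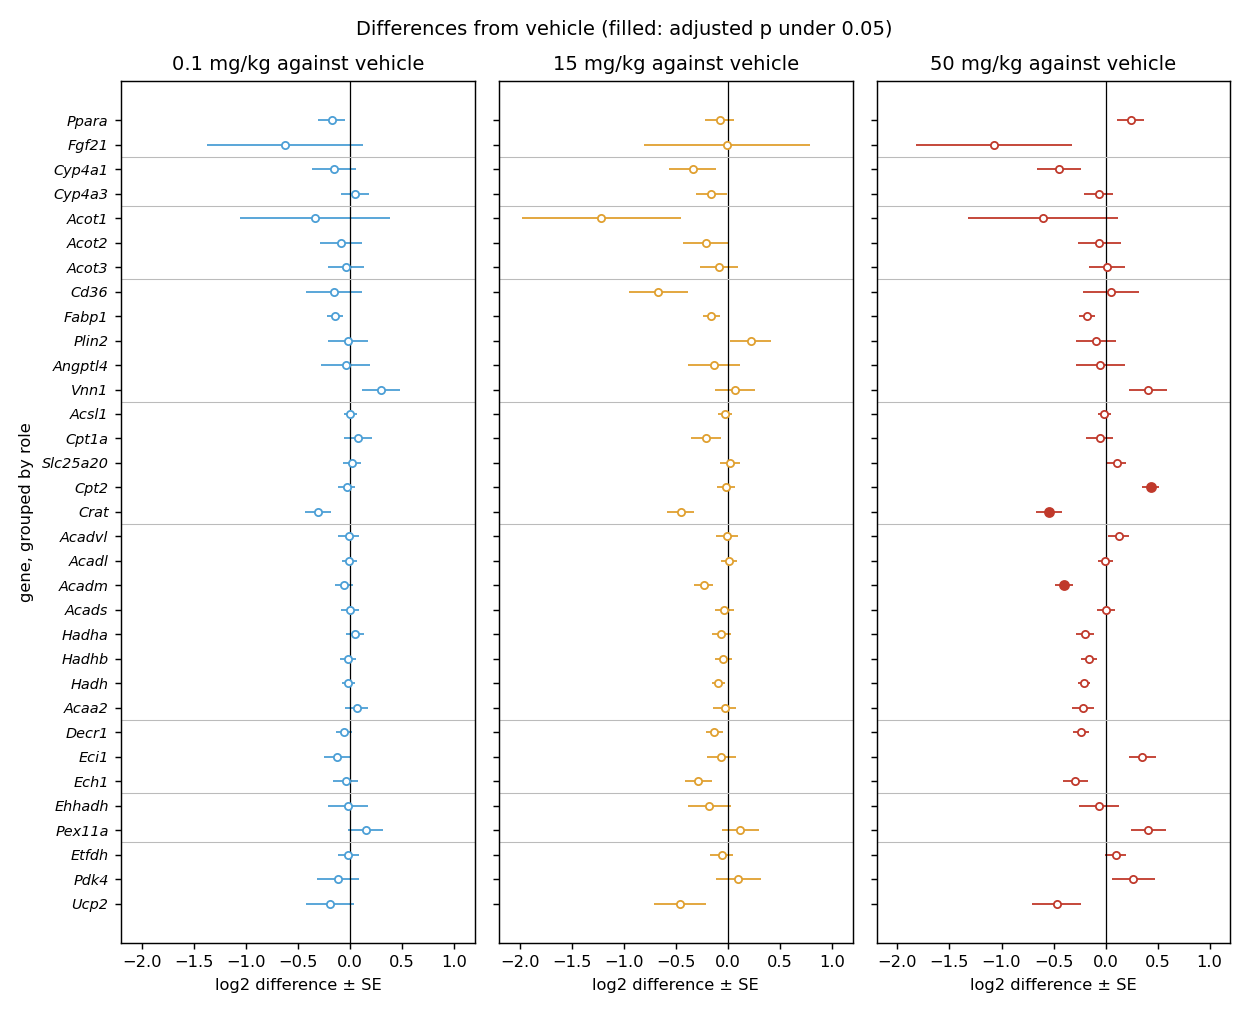
Log2 difference from vehicle at 0.1, 15 and 50 mg/kg for each of the 33 genes, with limma's standard error as bars. Filled points passed an adjusted p of 0.05, which Cpt2, Crat and Acadm did at 50 mg/kg and no gene did at 0.1 or 15 mg/kg.

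The carnitine shuttle and the step before it hold 5 genes: Acsl1 binds long fatty acids to coenzyme A, Cpt1a loads them onto carnitine at the outer membrane, Slc25a20 carries them across the inner membrane, Cpt2 unloads them, and Crat handles short chains. At 50 mg/kg 1 of the 5 rose, 1 fell and 3 did not pass. Cpt2 read 10.21, 10.19, 10.48, 10.15 and 10.22 in vehicle (values here and below are in the order of the replicate numbers), 10.43, 10.18, 10.14, 9.99 and 10.31 at 0.1 mg/kg, 10.26, 10.32, 10.25 and 10.09 at 15 mg/kg, and 10.69, 10.67, 10.74, 10.70 and 10.59 at 50 mg/kg. All 5 arrays at 50 mg/kg lay above all 14 other arrays. The group means were 10.25 ± 0.133 in vehicle (SD, n = 5), 10.21 ± 0.168 at 0.1 mg/kg (n = 5), 10.23 ± 0.100 at 15 mg/kg (n = 4) and 10.68 ± 0.0556 at 50 mg/kg (n = 5). The difference of 50 mg/kg from vehicle was 0.43 (SE 0.0813, 95% interval 0.261 to 0.603, limma adjusted p = 0.0126). Between 50 and 15 mg/kg it was 0.45 (SE 0.0863, adjusted p = 0.189), which did not pass although the groups did not overlap. In the test of any difference among the 4 dose groups, Cpt2 alone of the 33 genes passed (adjusted p = 0.0213; 0.325% of all probe sets and 0.556% of all genes passed).

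Crat read 9.33, 8.99, 8.76, 8.94 and 8.71 in vehicle, 8.42, 8.98, 8.75, 8.51 and 8.52 at 0.1 mg/kg, 8.37, 8.40, 8.53 and 8.66 at 15 mg/kg, and 8.26, 8.58, 8.49, 8.22 and 8.44 at 50 mg/kg. Every array at 15 and at 50 mg/kg lay below every vehicle array, while those at 0.1 mg/kg overlapped with vehicle and with both higher doses. The means were 8.94 ± 0.243 in vehicle (SD, n = 5), 8.64 ± 0.226 at 0.1 mg/kg (n = 5), 8.49 ± 0.129 at 15 mg/kg (n = 4) and 8.40 ± 0.154 at 50 mg/kg (n = 5). The difference from vehicle was -0.54 at 50 mg/kg (SE 0.121, 95% interval -0.799 to -0.289, adjusted p = 0.0313) and -0.45 at 15 mg/kg (SE 0.129, adjusted p = 0.427, not past the threshold). The highest Crat value was that of vehicle replicate 1, the array with the most muscle transcripts, and the lowest in vehicle was that of replicate 5, which also carried muscle transcripts. Without replicate 5 the difference at 50 mg/kg was -0.60, and without replicate 1 it was -0.45 (adjusted p = 0.0675). With the levels of the muscle and pancreas lists in the fit it was -0.42 (adjusted p = 0.0486). These arrays are of whole tissue, in which fewer cells of a type and less RNA per cell cannot be told apart.

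The other genes of the shuttle differed little. Cpt1a, the rate-setting step of the pathway, read 12.49, 12.30, 12.67, 12.76 and 12.53 in vehicle, 12.61, 12.29, 12.91, 12.43 and 12.88 at 0.1 mg/kg, 12.15, 12.40, 12.58 and 12.24 at 15 mg/kg, and 12.42, 12.34, 12.65, 12.27 and 12.79 at 50 mg/kg. The groups overlapped, and the difference at 50 mg/kg was -0.06 (SE 0.133, adjusted p = 0.863). Acsl1 differed by -0.01 (95% interval -0.147 to 0.125) and Slc25a20 by 0.11 (-0.081 to 0.293) at 50 mg/kg. The other 2 Acsl1 probe sets differed by -0.33 (adjusted p = 0.0843) and, at a low mean signal of 3.76, by 0.20, so that the 3 Acsl1 probe sets do not give the same size or sign.

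**Figure D2:**
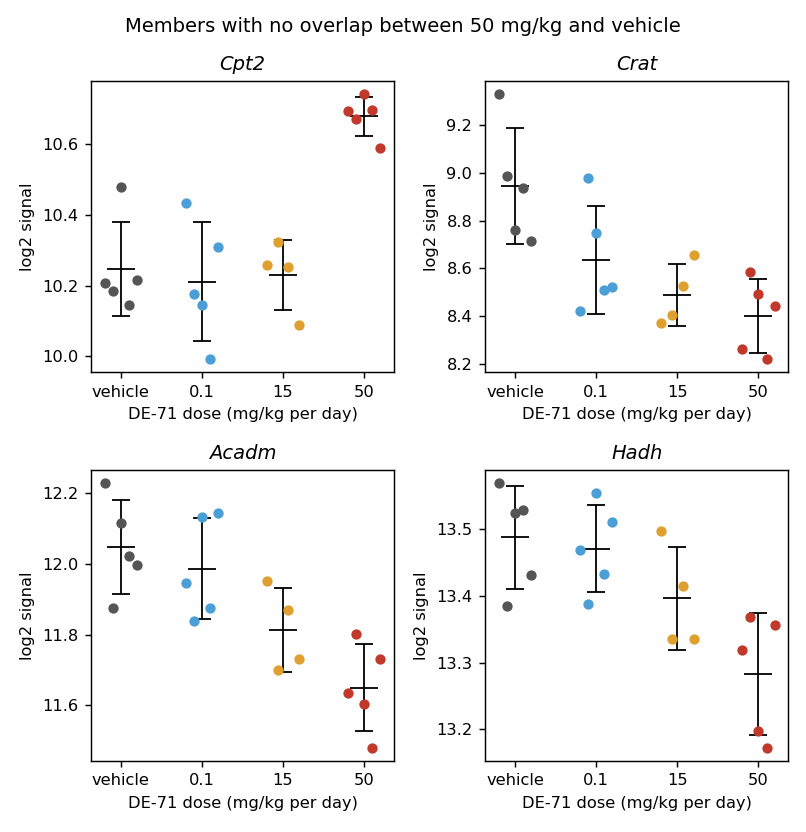
Log2 signal of Cpt2, Crat, Acadm and Hadh on each array by DE-71 dose, where points are arrays and bars the mean ± SD of a group of 4 or 5 arrays. The 5 arrays at 50 mg/kg do not overlap with vehicle in any of the panels, above it for Cpt2 and below it for the others, and the axes do not start at 0.

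Of the 8 enzymes of the mitochondrial beta-oxidation cycle, 1 fell at 50 mg/kg, none rose and 7 did not pass. Acadm read 12.23, 11.88, 12.12, 12.02 and 12.00 in vehicle, 11.94, 11.84, 12.13, 11.88 and 12.14 at 0.1 mg/kg, 11.95, 11.70, 11.87 and 11.73 at 15 mg/kg, and 11.63, 11.80, 11.60, 11.48 and 11.73 at 50 mg/kg. All arrays at 50 mg/kg lay below all arrays of vehicle and of 0.1 mg/kg, and those at 15 mg/kg overlapped with all groups. The means were 12.05 ± 0.133 in vehicle (SD, n = 5), 11.99 ± 0.143 at 0.1 mg/kg (n = 5), 11.81 ± 0.118 at 15 mg/kg (n = 4) and 11.65 ± 0.123 at 50 mg/kg (n = 5). The difference from vehicle was -0.40 at 50 mg/kg (SE 0.0852, 95% interval -0.576 to -0.218, adjusted p = 0.0262) and -0.23 at 15 mg/kg (adjusted p = 0.451). The 15 and 50 mg/kg comparisons share the vehicle arrays.

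Hadh, the dehydrogenase of short and medium chains, read 13.57, 13.38, 13.53, 13.53 and 13.43 in vehicle and 13.32, 13.37, 13.20, 13.17 and 13.36 at 50 mg/kg. The 2 groups did not overlap, but the difference of -0.21 (SE 0.0600) did not pass (adjusted p = 0.0957). A second Hadh probe set, at a lower mean signal of 5.80, went the other way with 0.27 (adjusted p = 0.631). With Hadh, the genes whose arrays at 50 mg/kg all lay on one side of vehicle were 1 higher and 3 lower of 33, where 3.21% of all probe sets were higher and 1.48% lower in this way. The dehydrogenases for other chain lengths differed less, Acadvl by 0.13 (adjusted p = 0.581), Acadl by -0.00 (0.981) and Acads by 0.01 (0.975). Hadha and Hadhb, the subunits of the trifunctional protein that works on long chains, differed by -0.20 (adjusted p = 0.28) and -0.16 (0.325), and Acaa2, the thiolase of the last step, by -0.22 (0.351). The mean deviation of the 8 enzymes from their vehicle means lay between -0.177 and 0.101 on the vehicle arrays and between -0.226 and -0.032 at 50 mg/kg, so that the groups overlapped.

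Hadha and Hadhb are neighbours on chromosome 6 that are read away from each other, with starts 301 bases apart. Their promoter windows share the 200 bases printed here on the strand of Hadha, since the pair is read from 1 stretch of DNA.
Hadha and Hadhb, chr6:31907551-31907750, plus strand: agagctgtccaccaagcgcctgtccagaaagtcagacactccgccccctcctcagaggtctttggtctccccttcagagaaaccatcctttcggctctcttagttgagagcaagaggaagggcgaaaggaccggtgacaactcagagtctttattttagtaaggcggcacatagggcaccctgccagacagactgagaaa

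Over the 18 arrays without 0.1 mg/kg replicate 2, the deviations of Hadha and Hadhb from their group means had a Pearson r of 0.544 (permutation p = 0.0199, adjusted over 3 pairs of genes 0.0299) and a Spearman rho of 0.529 (p = 0.0257, adjusted 0.0385). Without vehicle replicate 4 and 50 mg/kg replicate 5, the arrays farthest out for Hadha, r was 0.292. Leaving out these arrays also narrows the range of Hadha, so the lower r does not show that the relation rests on them. The r was 0.359 within the 7 early arrays and 0.604 within the 11 late ones. Pairs of genes that are not neighbours were not tested, so the relation is not shown to be particular to this pair. The pair was singled out after its values were seen, and the p-values were adjusted over 3 pairs alone.

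Enzymes that prepare unsaturated chains for the cycle did not pass at 50 mg/kg. Decr1, a reductase of double bonds, differed by -0.24 (adjusted p = 0.126), Ech1, an isomerase, by -0.29 (0.262) and Eci1, which shifts double bonds, by 0.35 (0.19). Eci1 read 11.70, 11.56, 11.91, 11.63 and 11.21 in vehicle and 12.00, 11.70, 12.20, 11.75 and 12.14 at 50 mg/kg, and 2 arrays at 50 mg/kg lay within the vehicle range. In the peroxisome, Ehhadh, a bifunctional enzyme of beta-oxidation there, differed by -0.06 (adjusted p = 0.9) and Pex11a, which acts in division of the organelle, by 0.41 (0.25). Neither passed.

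Omega-oxidation by the Cyp4a enzymes, a classical response to PPAR alpha activators in rodent liver, is represented by Cyp4a1 and Cyp4a3, and neither passed at any dose. Cyp4a1 read 11.89, 11.38, 11.80, 11.64 and 11.51 in vehicle, 10.84, 11.37, 11.66, 11.90 and 11.66 at 0.1 mg/kg, 11.64, 11.32, 11.13 and 11.12 at 15 mg/kg, and 11.54, 11.48, 10.49, 10.92 and 11.54 at 50 mg/kg. The low values at 50 mg/kg are those of replicates 3 and 4, and the groups overlapped. The difference was -0.45 (SE 0.211, adjusted p = 0.32). Cyp4a3 differed by -0.07 (adjusted p = 0.845). Cyp4a1 and Cyp4a3 deviated from their group means with r = 0.084 (permutation p = 0.738, adjusted 0.738) and rho = 0.051 (p = 0.841, adjusted 0.841) over 18 arrays. For this pair r was 0.305 without 50 mg/kg replicate 3 and 0.1 mg/kg replicate 1, 0.093 within the early and 0.067 within the late arrays. The Cyp4a genes are close copies of one another, so that probe sets may read more than the gene they are named for.

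Ppara itself read 7.17, 6.97, 7.24, 7.45 and 6.96 in vehicle, 7.33, 6.95, 6.55, 6.99 and 7.08 at 0.1 mg/kg, 7.08, 7.07, 7.35 and 6.81 at 15 mg/kg, and 7.28, 7.52, 7.48, 7.37 and 7.36 at 50 mg/kg. Values at 50 mg/kg lay in the upper part of the range and overlapped with vehicle, with a difference of 0.24 (SE 0.129, adjusted p = 0.384). Fgf21, a hormone that the liver releases under PPAR alpha control, spread more between arrays of one group than any other of the 33 genes, with an SD within groups of 1.29. It read 8.50, 8.09, 10.27, 10.97 and 6.56 in vehicle, 7.62, 8.01, 8.48, 10.18 and 6.96 at 0.1 mg/kg, 8.07, 8.03, 10.69 and 8.68 at 15 mg/kg, and 7.02, 7.26, 8.18, 8.63 and 7.93 at 50 mg/kg. Each of the other groups holds at least 1 array above 10 and the 50 mg/kg group none. The difference at 50 mg/kg was -1.07 (SE 0.748, adjusted p = 0.514), so that even a mean difference of this size was not larger than the spread between arrays.

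**Figure D3:**
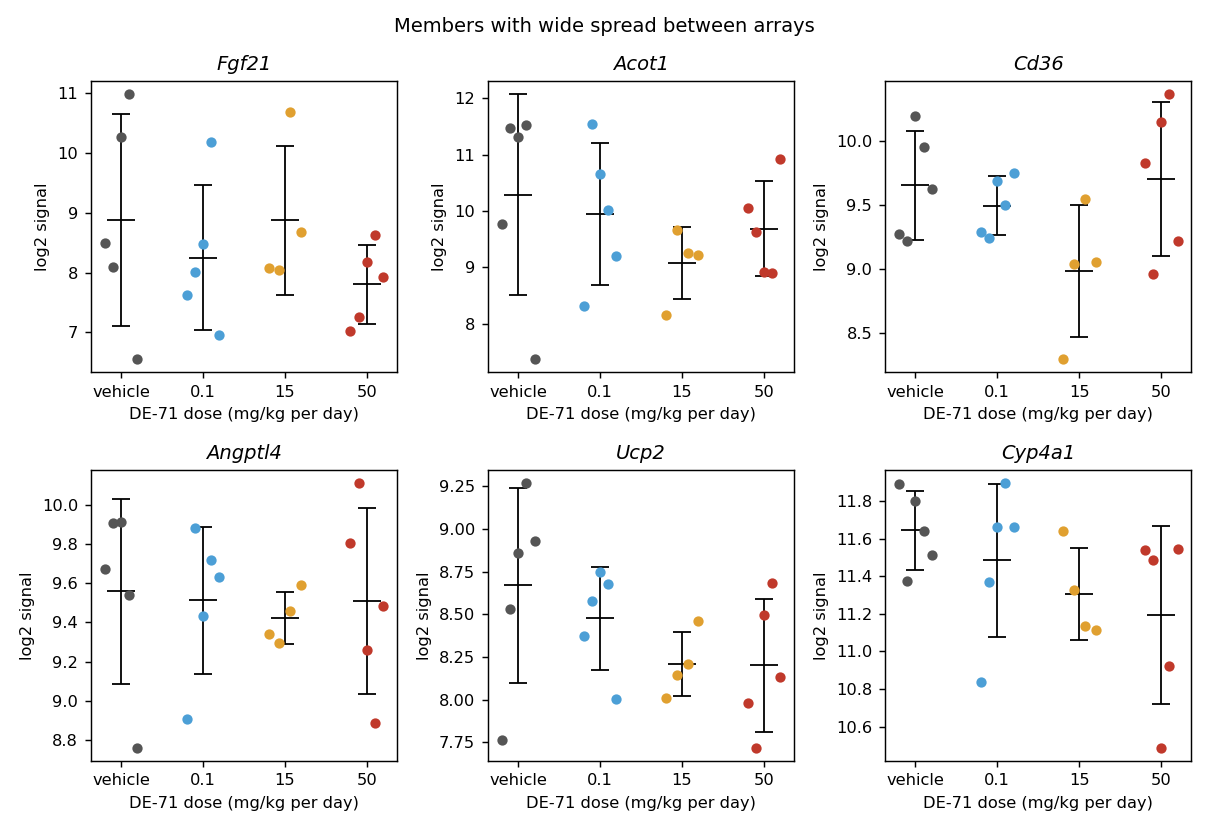
Log2 signal of Fgf21, Acot1, Cd36, Angptl4, Ucp2 and Cyp4a1 on each array by dose, where points are arrays and bars the mean ± SD of a group. The groups overlap in all panels, Fgf21 and Acot1 span more than 4 log2 units over the 19 arrays, and the axes do not start at 0.

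The acyl-CoA thioesterases split fatty acids from coenzyme A. Acot1, the form of the cytosol, had the next widest spread after Fgf21 (SD within groups 1.24), while Acot2 (0.347) and Acot3 (0.288) spread less. Acot1 read 9.77, 11.47, 11.31, 11.52 and 7.38 in vehicle, 8.31, 11.53, 10.66, 10.02 and 9.20 at 0.1 mg/kg, 8.16, 9.67, 9.25 and 9.21 at 15 mg/kg, and 10.06, 9.63, 8.92, 8.90 and 10.91 at 50 mg/kg. The lowest and nearly the highest of all 19 values are both vehicle arrays. Acot1 differed from vehicle by -1.22 at 15 mg/kg (SE 0.765, adjusted p = 0.596) and by -0.60 at 50 mg/kg (SE 0.721, adjusted p = 0.722). Without vehicle replicate 5 the difference at 50 mg/kg was -1.33 (adjusted p = 0.333). Acot2, the mitochondrial form, differed by -0.06 and Acot3, a peroxisomal one, by 0.02 at 50 mg/kg (adjusted p 0.91 and 0.975).

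Acot1 and Acot2 deviated together, with r = 0.902 and rho = 0.864 over 18 arrays (permutation p = 1e-05 for both, the smallest that 100000 resamples can give, adjusted 3e-05). The r was 0.812 without vehicle replicate 5 and 0.1 mg/kg replicate 1, 0.726 within the 7 early and 0.899 within the 11 late arrays. The 2 genes are near-identical copies whose probes may read both transcripts, so that part of this relation may be shared signal, which was not tested.

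**Figure D4:**
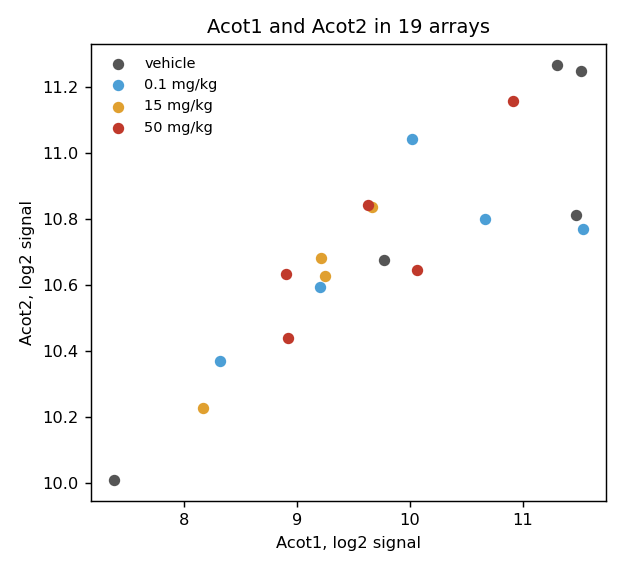
Acot2 against Acot1 in log2 signal, 1 point per array, coloured by dose group. Arrays of all 4 groups lie along one rising band, from 7.38 and 10.01 in vehicle replicate 5 to 11.31 and 11.27 in vehicle replicate 3.

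Genes of uptake, binding and storage comprise Cd36, a fatty acid receptor of the cell surface, Fabp1, which binds fatty acids in the cytosol, Plin2, a coat protein of lipid droplets, Angptl4, a secreted inhibitor of lipoprotein lipase, and Vnn1, a pantetheinase. None of the 5 passed at any dose. Cd36 read 9.27, 9.22, 10.19, 9.95 and 9.63 in vehicle, 9.29, 9.24, 9.69, 9.50 and 9.75 at 0.1 mg/kg, 8.30, 9.04, 9.55 and 9.05 at 15 mg/kg, and 9.82, 8.96, 10.15, 10.36 and 9.22 at 50 mg/kg. The 15 mg/kg group held the lowest array and overlapped with the others. Cd36 differed from vehicle by -0.67 at 15 mg/kg (SE 0.285, adjusted p = 0.466) and by 0.05 at 50 mg/kg (SE 0.269, adjusted p = 0.944), and 50 from 15 mg/kg by 0.72 (adjusted p = 0.573).

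Angptl4 read 9.67, 9.90, 9.91, 9.54 and 8.76 in vehicle, 8.91, 9.88, 9.43, 9.72 and 9.63 at 0.1 mg/kg, 9.34, 9.30, 9.46 and 9.59 at 15 mg/kg, and 9.80, 10.11, 9.26, 8.89 and 9.48 at 50 mg/kg. The groups overlapped throughout, with a difference at 50 mg/kg of -0.05 (SE 0.236, adjusted p = 0.937). Fabp1, whose promoter is printed above, differed by -0.18 (adjusted p = 0.289), Plin2 by -0.09 (0.844) and Vnn1 by 0.40 (0.3).

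Ucp2, a carrier of the inner mitochondrial membrane, read 7.76, 8.53, 8.86, 9.27 and 8.93 in vehicle, 8.37, 8.58, 8.75, 8.68 and 8.0025 at 0.1 mg/kg, 8.01, 8.15, 8.21 and 8.46 at 15 mg/kg, and 7.98, 7.72, 8.49, 8.68 and 8.13 at 50 mg/kg. The difference at 50 mg/kg was -0.47 (SE 0.235, adjusted p = 0.351), with overlap. Transcripts of blood-forming cells (7 of 9 listed genes measured) varied on the same arrays: their mean lay between 8.55 and 10.83 in vehicle, 9.59 and 10.45 at 0.1 mg/kg, 9.36 and 10.14 at 15 mg/kg, and 8.65 and 10.92 at 50 mg/kg. In each of the 4 groups the array with the lowest level of this list also had the lowest Ucp2. The array with the highest level had the highest Ucp2 in 3 of the 4 groups, but not at 15 mg/kg, where replicate 4 had the highest level (10.14) and replicate 5 the highest Ucp2. The neutrophil list (3 of 9 listed genes measured) also had its lowest array at the lowest Ucp2 in vehicle, 15 and 50 mg/kg, but not at 0.1 mg/kg. Its highest array matched in vehicle and at 50 mg/kg, but not at 0.1 or 15 mg/kg. The macrophage list (8 of 10 listed genes measured) had its lowest array at the lowest Ucp2 in no group. The highest array of the macrophage list matched at 50 mg/kg alone. With the level of the blood-forming list in the fit the Ucp2 difference was -0.30 (adjusted p = 0.1) and the Cd36 difference 0.20 (adjusted p = 0.598). That list was chosen after seeing the data, and what the Ucp2 spread comes from was not tested. Pdk4, a kinase that holds back pyruvate oxidation, differed by 0.27 (adjusted p = 0.551), and Etfdh, which passes electrons from the dehydrogenases to the respiratory chain, by 0.10 (0.675).

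**Figure D5:**
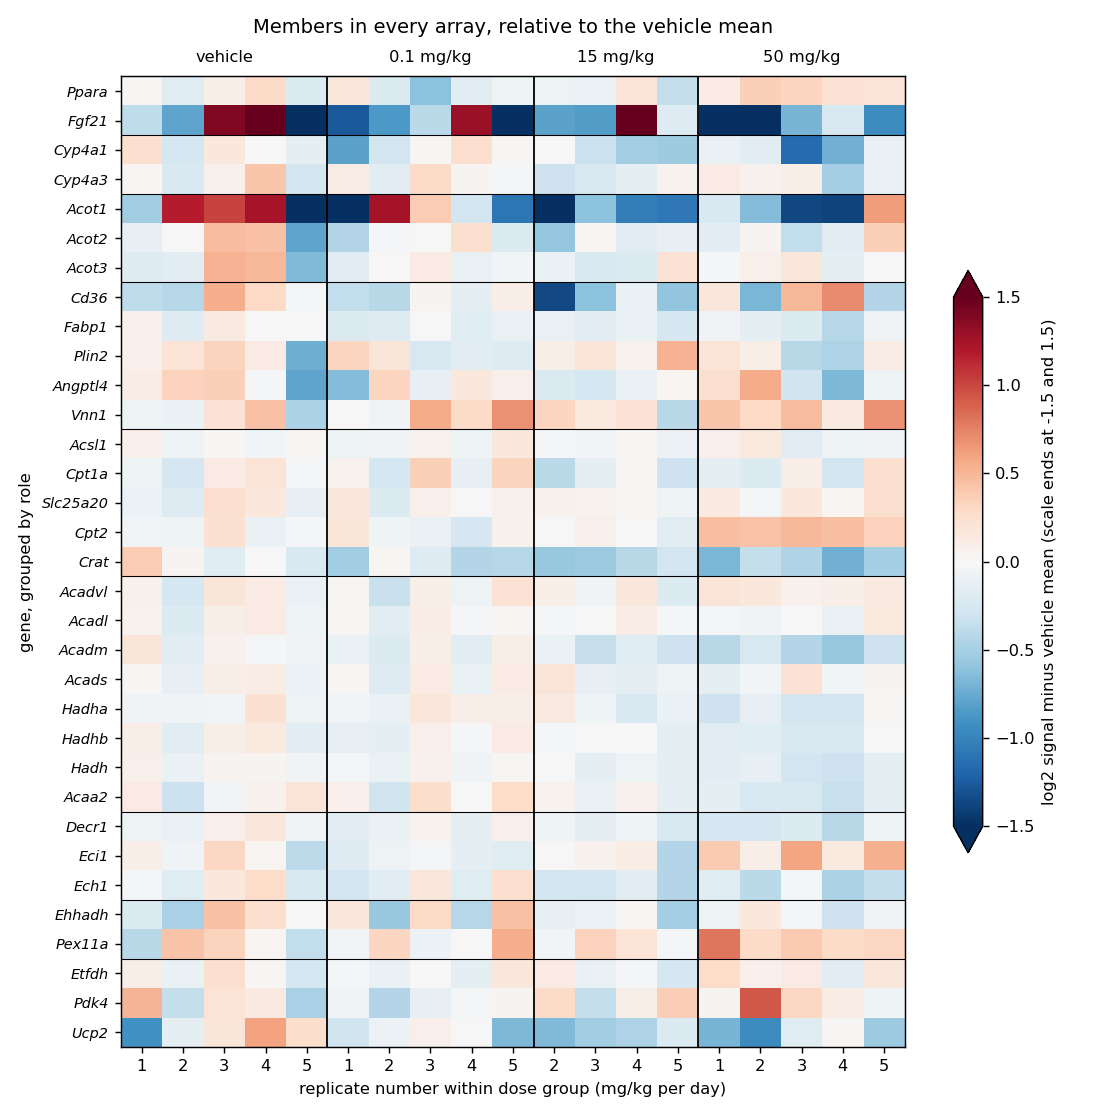
Log2 signal of the 33 genes (rows, by role) on the 19 arrays (columns, by dose) relative to the vehicle mean of each gene, with the colour scale ending at 1.5 in either direction. Fgf21 and Acot1 vary most within groups, vehicle replicates 3 and 4 are above the vehicle mean over the 33 genes (by 0.247 and 0.253) and vehicle replicate 5 is below it (by -0.354).

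Taken over all 33 genes, differences from vehicle were small and more often below than above 0. At 50 mg/kg 21 of 33 (63.6%) lay below 0, against 45.6% of all probe sets, with a median of -0.06 against 0.02. At 15 mg/kg 27 of 33 (81.8%) lay below 0 against 45.5%, with a median of -0.08 against 0.02, and at 0.1 mg/kg 25 of 33 (75.8%) against 41.5%, with a median of -0.04 against 0.02. These counts share the vehicle arrays, on which the mean deviation of the 33 genes ran from -0.354 in replicate 5 to 0.253 in replicate 4. This range holds the means of all 14 exposed arrays, which lay between -0.209 and 0.046. The difference was within 0.25 in either direction for 29 genes at 0.1 mg/kg, 27 at 15 mg/kg and 21 at 50 mg/kg.

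Before adjustment for the number of probe sets, 12 of the 33 genes (36.4%; 4 higher and 8 lower) had a p under 0.05 at 50 mg/kg, against 15.4% of all probe sets. At 15 mg/kg these were 4 genes (Crat, Acadm, Cd36 and Ech1, all lower) against 9.93%, at 0.1 mg/kg 1 gene (Crat, lower) against 2.46%, and between 50 and 15 mg/kg 4 genes, all higher at 50, against 7.79%. At 15 mg/kg Crat was the 1 gene of 33 whose arrays all lay below vehicle (1.16% of all probe sets) and none lay above (2.21%). Between 50 and 15 mg/kg Cpt2 was the 1 gene whose arrays all lay above (1.84%) and none lay below (1.02%). At 0.1 mg/kg no gene of the 33 was separated from vehicle in this way (0.148% of all probe sets higher and 0.0515% lower). All these shares are over all probe sets, dim ones included, while all 33 genes lie above the median level.

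A list of 101 further genes of PPAR alpha action and fatty acid oxidation, drawn up from background knowledge of the pathway, had 92 measured. At 50 mg/kg 1 of the 92 fell, none rose and 91 did not pass, with a median difference of 0.03. This share is below that over all probe sets (1.61%) and over all genes (2.23%), so that it is no result about the list. The gene that fell was Pdk2, a kinase that inhibits pyruvate dehydrogenase. It read 10.51, 10.31, 10.23, 10.18 and 10.48 in vehicle and 9.73, 10.19, 9.77, 9.72 and 10.04 at 50 mg/kg. Replicate 2 at 50 mg/kg lay just above the lowest vehicle array, so that the groups overlapped, and the other 4 lay below all vehicle arrays. The means were 10.34 ± 0.146 (SD, n = 5) and 9.89 ± 0.213 (n = 5), a difference of -0.45 (SE 0.102, adjusted p = 0.0317). The call was lost in 12 of 26 alternatives, among them the block for early and late array numbers (-0.45, adjusted p = 0.137). None of the 92 passed at 0.1 or 15 mg/kg or between 50 and 15 mg/kg. The other 9 were not analysed here.

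With the block for early and late array numbers, under which none of the 33 genes and 0.184% of all probe sets passed, the differences at 50 mg/kg were 0.38 for Cpt2, -0.55 for Crat and -0.43 for Acadm. Within the early arrays (4 at 50 mg/kg, 1 vehicle) the differences were 0.49 for Cpt2, -0.94 for Crat and -0.60 for Acadm, and within the late arrays (1 and 4) 0.33, -0.41 and -0.27. Without the 3 arrays in doubt (vehicle replicate 2, 0.1 mg/kg replicates 1 and 2), all 3 genes passed (Cpt2 0.42, adjusted p = 0.0167; Crat -0.53, 0.0362; Acadm -0.44, 0.0166). Without the 4 arrays rich in muscle transcripts, which leaves 3 arrays in vehicle and 3 at 50 mg/kg, the differences were 0.39, -0.59 and -0.39. None of the 33 genes passed, nor did any probe set, Cyp1a1 included. That count of 0 therefore does not show whether the 3 calls rested on muscle. Some calls depended on single arrays: without vehicle replicate 1, vehicle replicate 4, 50 mg/kg replicate 1 or 50 mg/kg replicate 4, Cpt2 was the 1 gene that passed.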

How the data were processed

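Liver RNA was amplified from 100 ng with an Affymetrix 3' IVT Plus kit and read on Rat230_2 arrays, per the labels. The authors deposited log2 values, and the submitters' processing notes name RMA, which subtracts background, normalizes by quantiles and summarises probes, and which compresses folds near both ends of the signal range. The RMA version was not given in the sources. Genes were named through the platform annotation, and of the 31042 probe sets left after removing 57 control probe sets, 20826 have 1 gene symbol, 436 several and 9780 none.

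Groups were taken from the labels. The submitters named R/maanova and a 0.05 false discovery rate, and here limma 3.58.1 in R 4.3.3 fitted 1 mean per dose group over all 19 arrays (residual degrees of freedom 15, prior 2.78). All tests of this fit are two-sided, their p-values were adjusted by Benjamini-Hochberg over all probe sets, and the threshold was 0.05. The number of arrays limits the precision. The submitters did not list 50 against 15 mg/kg, which was added. The fit was tested on simulated data.

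The members and gene lists were chosen with earlier results of these data known. Values on every array are given for members that passed, for the 5 with the largest difference at 50 mg/kg, for the 5 with the largest SD within groups, and for Ppara and Cpt1a. Hadh, Eci1 and the neighbouring gene pairs were singled out after their values were seen. Correlations used two-sided permutation tests with 100000 resamples. Promoters come from a RefSeq table of build GRCr8.

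Alternatives were a replicate block, a block for early and late array numbers, the variance prior, the compared groups alone, a filter on dim probe sets, median centring, cyclic loess, array weights, muscle and pancreas covariates, the mean of all probe sets, and leaving out arrays. The sets without 3 arrays in doubt or without 4 arrays rich in muscle, and the erythroid covariate, were chosen after seeing the data. Same-numbered arrays of different groups were checked for pairing: of 27 such pairs 11 had correlated deviations over 0.1 (range -0.534 to 0.889), so the numbers were not taken to pair arrays.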

Additional observations from a re-analysis of the deposited data

Results flagged for a closer look

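Of 52 groups of arrays examined for 13 genes, 2 held an array far from the rest of its group, where chance gives about 1 in 20 groups. Cpt2 in vehicle replicate 3 read 10.48, with the nearest other vehicle array at 10.22, and this highest vehicle value was still below the lowest at 50 mg/kg. Cyp1a1 in the array labelled 0.1 mg/kg replicate 1 read 14.06, with the nearest other array of its group at 8.42.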

How the results depend on the processing

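The counts of 0 at 0.1 mg/kg, at 15 mg/kg and between 50 and 15 mg/kg stayed 0 in all 26, 25 and 25 alternatives. At 50 mg/kg the count ran from 0 to 4 over the alternatives and was within 1.5 times of 3 in 18 of 26. It was 0 with the early and late block of arrays and 0 without the 4 arrays with muscle transcripts, and 1 with the compared groups alone and 1 with the early and late block without the 3 arrays in doubt, and leaving out single arrays gave 1 to 3. Leaving arrays out also leaves fewer of them, and the cause of the other changes was not tested. Cpt2 passed in 23 of 26 alternatives (adjusted p 0.00534 to 0.313), Crat in 15 (0.0139 to 0.182), Acadm in 16 (0.011 to 0.277) and Pdk2 in 14 (0.0106 to 0.276), and none of the 4 changed sign. The count in the test over the 4 dose groups was 1, and 0 with the early and late block (with or without the 3 arrays in doubt), 0 without the arrays with muscle transcripts, 2 with array weights, 2 without the 3 arrays in doubt, and 0 to 1 without single arrays. That test has no fit of compared groups alone.

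With the replicate number as a block, 2 members passed at 50 mg/kg (Cpt2 and Acadm) and Crat did not (-0.54, adjusted p = 0.0514), although the numbers do not pair the arrays.

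Differences at 50 mg/kg that did not pass turned sign as follows, the cause not tested. With the early and late block, Acot1 was 0.217, Angptl4 0.055 and Cpt1a 0.05, and without the 3 arrays in doubt as well, 0.26, 0.003 and 0.027. Array weights gave Cd36 -0.086 and Angptl4 0.029, muscle and pancreas covariates gave Cd36 -0.067 and Angptl4 0.088, and leaving out the 3 arrays in doubt gave Cd36 -0.057 and Angptl4 0.037. Leaving out single arrays gave Cd36 -0.114 to 0.236 and Angptl4 -0.248 to 0.106. Over all probe sets, 499 passed at 50 mg/kg, 57 with the early and late block, 263 with the covariates, 921 with array weights, 216 with the early and late block without the 3 arrays in doubt, 0 without the 4 arrays with muscle transcripts, and 178 to 593 without single arrays of the 2 groups.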
